A study of Homo sapiens with 6 samples.

Results

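The aminoacyl-tRNA synthetases are the enzymes that join each amino acid to its transfer RNA. A list of 35 synthetase genes, 19 for enzymes of the cytosol and 16 for enzymes of the mitochondrion, was matched by symbol to a table of 33392 genes, and all 35 were found. Levels were measured by RNA sequencing in 6 libraries of HK-2, a human kidney tubule epithelial cell line. All cells received TGF-β1, a cytokine of fibrosis, and are labelled 48 h. In 3 libraries they had also received a scramble siRNA, and in 3 an siRNA against the kinase DYRK2. The comparison therefore asks how synthetase transcripts differ when DYRK2 is silenced in TGF-β1-treated cells, and no library without TGF-β1 was analysed here. The sources used here do not give the TGF-β1 dose or the siRNA sequences. Nothing in the labels says that the replicates came from separate cultures, so the p-values below measure the spread between these libraries, which may be technical.

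Each synthetase activates its amino acid with ATP and transfers it to the matching tRNA, which then enters the ribosome bound to an elongation factor. Translation in the mitochondrion uses a separate set of enzymes, encoded in the nucleus and imported, although GARS1 and KARS1 supply both compartments from alternative forms. Several cytosolic enzymes are held in a multisynthetase complex on the scaffold proteins AIMP1, AIMP2 and EEF1E1. When charged tRNA runs short, uncharged tRNA activates the kinase GCN2 (gene EIF2AK4), and the transcription factor ATF4 then induces genes of amino acid supply, many cytosolic synthetases among them.

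The FPKM values, which scale fragments by transcript length and library size, summed to between 252318 and 255378 per library. The siRNA target stood at 5.95 ± 0.110 FPKM with scramble and at 1.49 ± 0.0451 FPKM with siDYRK2 (SD, n = 3), a log2 fold change of −1.69 (adjusted p = 2.0e-06 by limma). By an exact two-sided permutation test of these 6 values p was 0.1, which is the lowest that groups of 3 permit. All 5 epithelial markers examined were expressed, with a summed level of 333 to 350.8 FPKM with scramble and 238 to 249.9 FPKM with siDYRK2. Of 12 proximal tubule markers 10 had values, and none of these 10 reached a mean of 0.5 FPKM. They stood at 0.54 FPKM or less in every library, so the labelled tubule identity was not seen in these markers. Summed fibroblast markers lay at 0.35 to 0.42 FPKM with scramble and 0.62 to 0.75 FPKM with siDYRK2, and immune markers at 0.24 to 0.35 and 0.52 to 0.85 FPKM. Of the markers with values none was at 0 in every library. The listed markers LRP2, SLC22A6, COL1A2, PTPRC and CD3E had no match by symbol and were not analysed here. Endothelial markers summed to at most 0.07 FPKM. The part of these levels in the results below was not tested.

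Promoter sequence was not used to choose the genes. ATF4 binds the C/EBP-ATF response element, searched here as TGATGNAA on either strand in RefSeq promoters (GRCh38.p14) reaching from 250 bases before to 50 after each listed gene start. RefSeq promoters were at hand for 30 of the 35 genes and not for LARS1, VARS1, YARS1, AARS2 and VARS2. The element was found in 7 of 16 cytosolic genes (43.75%) and in 1 of 14 mitochondrial genes, YARS2. Of all 27305 genes with a listed promoter 4.46% held it, as did 2.58% of the 10382 tested genes matched. Shown are the 7 cytosolic matches, 5′ to 3′ on the strand of the gene, with the element in capitals.
AARS1, chr16:70289670-70289709, minus strand: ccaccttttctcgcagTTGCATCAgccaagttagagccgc
CARS1, chr11:3057402-3057441, minus strand: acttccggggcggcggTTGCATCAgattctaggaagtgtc
GARS1, chr7:30594829-30594868, plus strand: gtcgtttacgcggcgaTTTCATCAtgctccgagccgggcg
IARS1, chr9:92293687-92293726, minus strand: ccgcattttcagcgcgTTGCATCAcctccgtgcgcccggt
MARS1, chr12:57488048-57488087, plus strand: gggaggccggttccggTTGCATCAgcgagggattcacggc
NARS1, chr18:57621799-57621838, minus strand: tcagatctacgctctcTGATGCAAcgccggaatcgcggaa
TARS1, chr5:33440951-33440990, plus strand: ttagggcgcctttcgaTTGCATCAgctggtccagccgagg

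In 6 of these 7 genes the element starts between positions −33 and 15 of a listed gene start, and in AARS1 at −187. In 6 of them the letters are TTGCATCA or its reverse complement, and GARS1 has TTTCATCA. The E-box CACGTG, which MYC binds, was found in 1 of the 16 cytosolic genes (IARS1) and in 3 of the 14 mitochondrial genes (CARS2, EARS2 and MARS2), against 8.78% of all genes with a promoter and 12.5% of the tested genes matched. These matches are letters in a window and do not show binding.

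Most cytosolic synthetase transcripts were called higher after DYRK2 silencing, by small amounts, and fewer of the mitochondrial ones were. Of the 19 cytosolic genes 12 rose and 1 fell, and 6 were not called. Of the 16 mitochondrial genes 5 rose and 1 fell, and 10 were not called. The call is a limma adjusted p under 0.05, fitted over the 15121 genes whose mean reached 0.5 FPKM, of which 20.4% were called higher and 17.9% lower (together 38.3%). The share called higher was thus 63.2% of the cytosolic genes and 31.2% of the mitochondrial genes. The median log2 fold change, siDYRK2 minus scramble on log2(FPKM + 0.5), was 0.18 for the cytosolic and 0.11 for the mitochondrial genes, and 0.01 over all tested genes. The log2 fold change was above 0 in 16 of the 19 cytosolic and 12 of the 16 mitochondrial genes. Over all tested genes it was above 0 in 7780 of 15121. A call depends on precision as well as on size. PARS2 at 0.28 (standard error 0.106) was not called, whereas MARS1 at 0.17 (standard error 0.0287) was. The difference between the compartments was not tested. All 35 genes passed the expression filter with means of at least 1.28 FPKM in each group. In bulk RNA a change in the amount per cell and a change in the share of cells cannot be told apart.

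**Figure D1:**
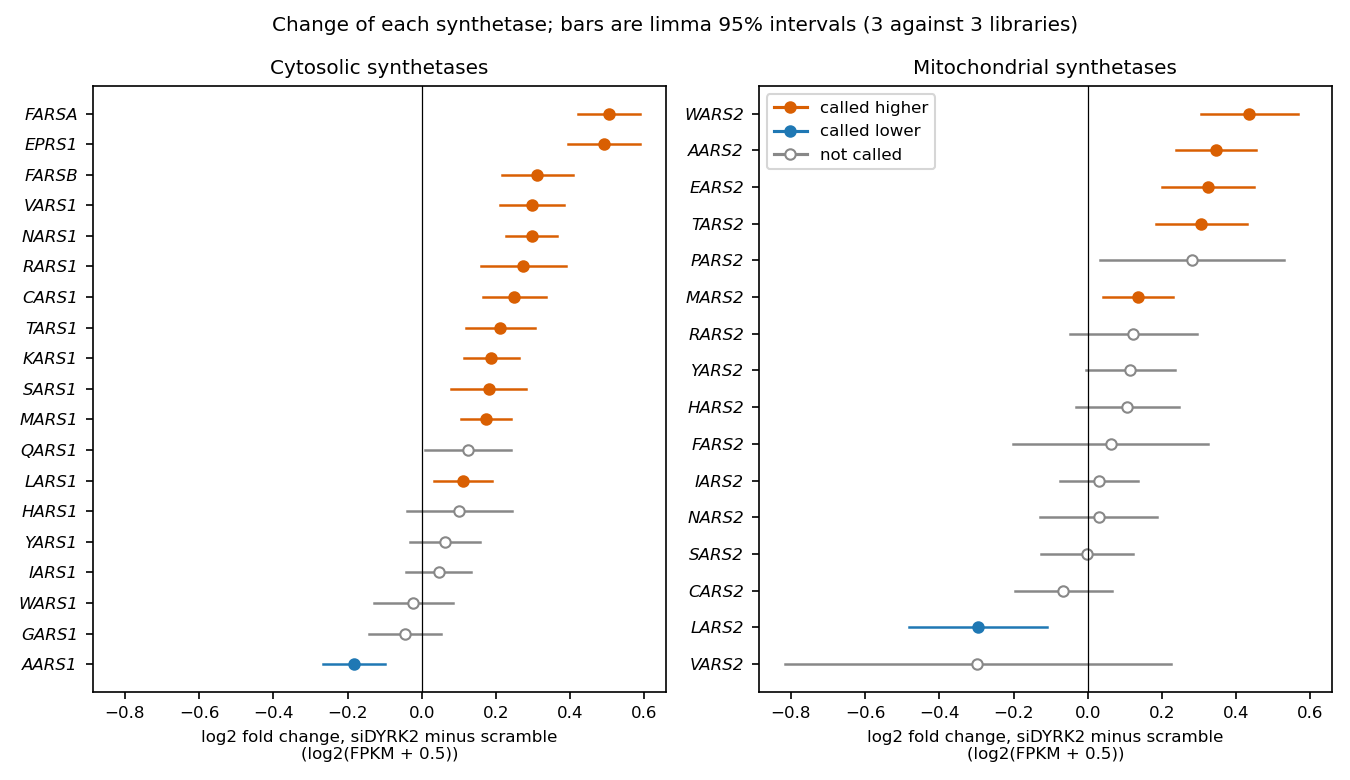
Log2 fold change of each synthetase gene (x axis, siDYRK2 minus scramble, log2(FPKM + 0.5)) with its limma 95% interval, cytosolic enzymes left and mitochondrial enzymes right. Filled orange points were called higher, filled blue points lower, and open grey points were not called; FARSA leads the cytosolic panel at 0.50 and WARS2 the mitochondrial panel at 0.44, and AARS1 and LARS2 are the only blue points.

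Summed over the 19 cytosolic genes, the level was 862.5 ± 20.8 FPKM with scramble and 978.9 ± 9.89 FPKM with siDYRK2 (SD, n = 3), 1.14-fold higher. The 3 scramble sums were 877.51, 871.37 and 838.76 FPKM and the 3 siDYRK2 sums 969.6, 977.76 and 989.29 FPKM. The 16 mitochondrial genes summed to 123.8 ± 3.83 and 133.4 ± 2.44 FPKM (SD, n = 3), 1.08-fold higher. Neither pair of groups overlapped, and no test was made of these sums.

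Both subunits of the cytosolic phenylalanyl enzyme were among the genes that rose most. FARSA (ENSG00000179115; GRCh38 chromosome 19, 12922479 to 12934037, minus strand) encodes the catalytic alpha subunit. It stood at 27.75, 25.78 and 27.07 FPKM in the scramble libraries and at 38.37, 37.75 and 38.75 FPKM in the siDYRK2 libraries. Every siDYRK2 library was above every scramble library, a 1.43-fold difference with a log2 fold change of 0.50 (standard error 0.0357, adjusted p = 7.5e-05 by limma). FARSB, the beta subunit, stood at 10.55 ± 0.187 FPKM with scramble and rose to 13.2 ± 0.538 FPKM with siDYRK2 (SD, n = 3), 1.25-fold. The level of FARSB was thus below that of its partner in each group.

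EPRS1, a single protein that charges both glutamyl and prolyl tRNA, rose 1.41-fold from 71.3 ± 3.57 to 100.3 ± 1.98 FPKM (SD, n = 3), which is 0.49 in log2 (adjusted p = 1.6e-04 by limma). It is one of 7 listed enzymes of the multisynthetase complex, of which 5 rose (71.4%) and 2 were not called (median log2 difference 0.17). Over all tested genes 20.4% were called higher and 17.9% lower. The other complex enzymes that rose were RARS1 (arginyl, 1.21-fold), KARS1 (lysyl, 1.14-fold), MARS1 (methionyl, 1.13-fold) and LARS1 (leucyl, 1.08-fold). The call of LARS1 was kept in 7 of 15 alternatives. QARS1, the glutaminyl enzyme, stood at 18.6 ± 1.12 and 20.3 ± 0.582 FPKM (SD, n = 3; adjusted p = 0.087 by limma). IARS1, the isoleucyl enzyme, stood at 23.4 ± 0.914 and 24.1 ± 0.351 FPKM (SD, n = 3), with a 95% interval of its log2 difference from −0.04 to 0.13.

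Among the 12 cytosolic genes outside the complex 7 rose (58.3%) and 1 fell (8.33%), with a median log2 difference of 0.20. The shares over all tested genes were 20.4% and 17.9%. Besides FARSA and FARSB, VARS1 (valyl) and NARS1 (asparaginyl) each rose 1.23-fold, VARS1 from 35.3 ± 0.545 to 43.5 ± 1.73 FPKM and NARS1 from 69.5 ± 1.69 to 85.4 ± 0.94 FPKM (SD, n = 3). CARS1 (cysteinyl) rose from 13.1 ± 0.133 to 15.7 ± 0.486 FPKM (SD, n = 3) and SARS1 (seryl) 1.13-fold. TARS1, the threonyl enzyme, had the highest level of the 35 genes and rose from 178.2 ± 5.95 FPKM to 206.4 ± 7.79 FPKM (SD, n = 3), 1.16-fold. For the 12 cytosolic genes that rose, the adjusted p by limma lay between 7.5e-05 (FARSA) and 0.034 (LARS1).

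AARS1, the alanyl enzyme, was the cytosolic gene that fell. AARS1 (ENSG00000090861; GRCh38 chromosome 16, 70252295 to 70289543, minus strand) stood at 93.21, 96.83 and 97.66 FPKM with scramble and at 87.29, 84.49 and 81.55 FPKM with siDYRK2. The groups did not overlap, and the log2 fold change was −0.18 (standard error 0.0354, adjusted p = 0.0060 by limma). It remained called lower in all 15 alternative analyses. Its promoter holds the response element shown above, as do those of CARS1, MARS1, NARS1 and TARS1, which rose, and of GARS1 and IARS1, which did not pass the test. Of the 7 cytosolic genes with the element 4 rose and 1 fell, and of the 9 without it 6 rose. Their median log2 fold changes were 0.17 and 0.19. Among all 268 tested genes found with the element, 67 were called higher and 47 lower. LARS1, VARS1 and YARS1 had no listed promoter and are left out of this split, and 2 of these 3 rose. Genes counted as without the element lack it only in the window searched. Whether the element has a part in these changes was not tested.

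The other 4 cytosolic genes did not pass the test. GARS1, the glycyl enzyme, stood at 28.6 ± 0.922 and 27.7 ± 1.12 FPKM (SD, n = 3), with a 95% interval of the log2 difference from −0.14 to 0.05. WARS1, the tryptophanyl enzyme and an interferon-induced gene, stood at 57.9 ± 3.33 and 56.9 ± 1.09 FPKM (SD, n = 3), with an interval from −0.13 to 0.08. YARS1 (tyrosyl) stood at 25.1 and 26.2 FPKM. HARS1 (histidyl) had the lowest level of the cytosolic genes, at 3.47 and 3.76 FPKM.

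**Figure D2:**
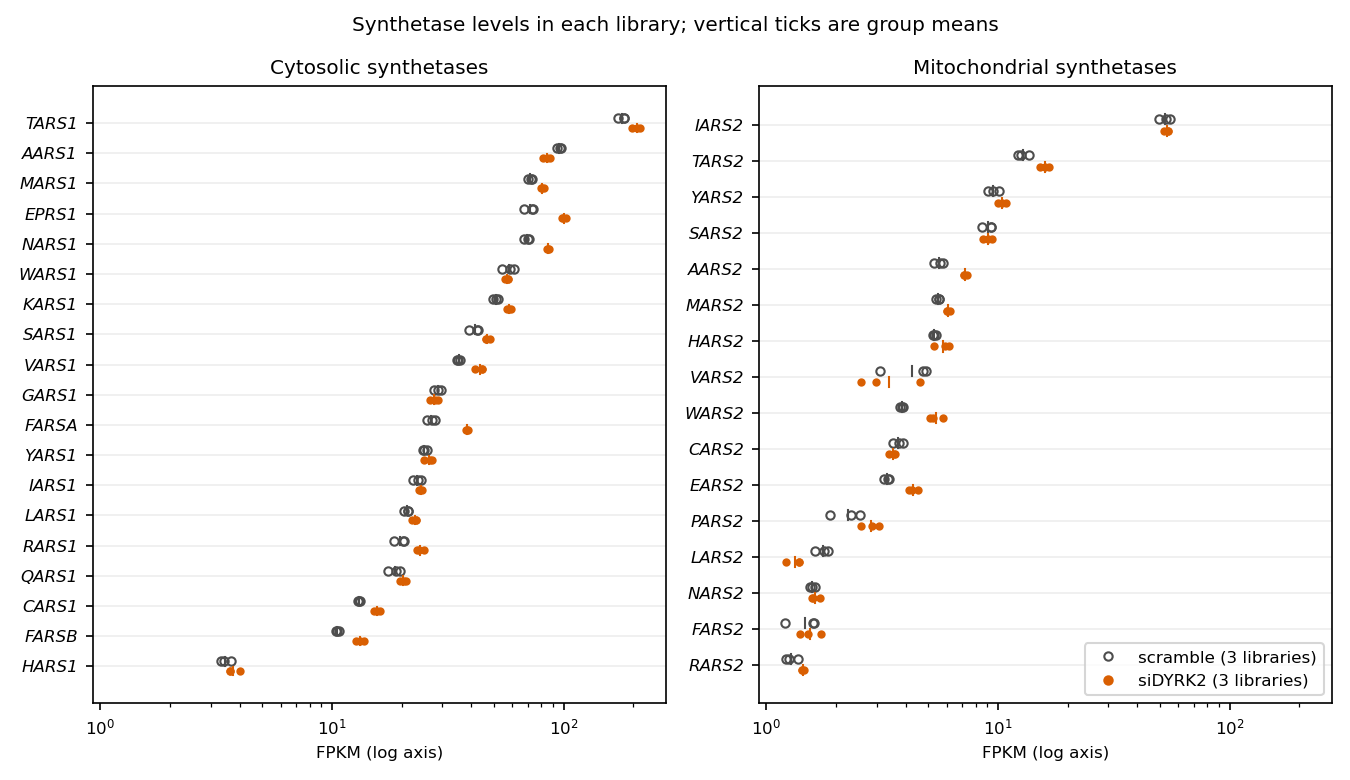
FPKM of each synthetase gene in each of the 6 libraries (log axis), open grey circles for scramble, orange circles for siDYRK2, and vertical ticks for the group means. Scramble means run from 3.47 FPKM (HARS1) to 178.2 FPKM (TARS1) in the cytosolic panel and from 1.28 FPKM (RARS2) to 52.6 FPKM (IARS2) in the mitochondrial panel.

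Mitochondrial synthetases were expressed at lower levels than the cytosolic ones. The mean over libraries of the median gene was 4.16 FPKM for the mitochondrial and 28.6 FPKM for the cytosolic genes with scramble. IARS2, the isoleucyl enzyme, stood apart at 52.6 ± 2.98 and 53.7 ± 1.22 FPKM (SD, n = 3), a difference that did not pass the test. Next in level came TARS2 (threonyl), which rose 1.24-fold from 12.8 ± 0.712 to 15.9 ± 0.71 FPKM (SD, n = 3). As the depth per library is unknown, no counting error can be given for the genes near 1 FPKM.

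WARS2, the mitochondrial tryptophanyl enzyme, rose most in its compartment. WARS2 (ENSG00000116874; GRCh38 chromosome 1, 119031216 to 119140671, minus strand) stood at 3.88, 3.86 and 3.79 FPKM with scramble and at 5.26, 5.77 and 5.11 FPKM with siDYRK2. The groups were clearly apart, with a 1.40-fold difference and a log2 fold change of 0.44 (standard error 0.0556, adjusted p = 9.8e-04 by limma). AARS2, the mitochondrial alanyl enzyme, stood at 5.61, 5.32 and 5.79 FPKM with scramble and at 7.34, 7.17 and 7.13 FPKM with siDYRK2. It rose 1.29-fold with no overlap of the groups (log2 fold change 0.35, SE 0.0456, adjusted p = 0.0011 by limma). EARS2, the glutamyl enzyme, which also attaches glutamate to the glutaminyl tRNA of the mitochondrion, rose 1.29-fold from 3.32 ± 0.0781 to 4.29 ± 0.198 FPKM (SD, n = 3).

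MARS2 (methionyl) rose 1.11-fold from 5.50 to 6.09 FPKM (adjusted p = 0.033 by limma). That call was lost without any one of the 6 libraries (adjusted p from 0.059 without siDYRK2 replicate 3 to 0.099 without siDYRK2 replicate 1). PARS2 (prolyl) stood at 2.25 ± 0.337 and 2.83 ± 0.261 FPKM (SD, n = 3; adjusted p = 0.074 by limma) and was called higher without scramble replicate 3 (adjusted p = 0.045). HARS2 (histidyl) stood at 5.32 and 5.77 FPKM (adjusted p = 0.20 by limma) and was called higher without siDYRK2 replicate 3 (adjusted p = 0.042).

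LARS2, the mitochondrial leucyl enzyme, fell. LARS2 (ENSG00000011376; GRCh38 chromosome 3, 45388506 to 45549421, plus strand) stood at 1.85, 1.78 and 1.62 FPKM with scramble and at 1.39, 1.22 and 1.39 FPKM with siDYRK2. The groups did not overlap, and the log2 fold change was −0.30 (standard error 0.0796, adjusted p = 0.023 by limma). The call was lost without scramble replicate 1 (adjusted p = 0.075), scramble replicate 2 (0.073) or siDYRK2 replicate 2 (0.074). VARS2 (valyl) had a log2 difference of about the same size, −0.30, but its libraries were spread over 3.1 to 4.88 FPKM with scramble and 2.56 to 4.63 FPKM with siDYRK2 (adjusted p = 0.33 by limma). CARS2, FARS2, IARS2, NARS2, RARS2, SARS2 and YARS2 also did not pass the test, with log2 differences from −0.07 (CARS2) to 0.12 (RARS2).

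For 22 of the 35 genes the scramble and siDYRK2 libraries had separate ranges, and in 20 of these siDYRK2 was higher. Over all tested genes 51.7% did not overlap, and in 27.4% siDYRK2 was the higher group. Synthetases fall into 2 catalytic classes of unrelated fold. Leaving out EPRS1, whose domains belong to different classes, 8 of 18 class I enzymes rose and 1 fell (44.4% and 5.56%). Of 16 class II enzymes 8 rose and 1 fell (50% and 6.25%), beside 20.4% and 17.9% of all tested genes.

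For 14 amino acids the list holds an enzyme of each compartment, which gives 15 gene pairs because FARSA and FARSB share FARS2. In 13 of the 15 pairs the cytosolic transcript was the more abundant in every library, the exceptions being the histidyl and isoleucyl pairs. Members of a pair often differed in their calls, but a call in only 1 of them does not test a difference between them. Over all tested genes 20.4% were called higher and 17.9% lower, and calls in other gene pairs were not counted. In 7 pairs the cytosolic gene rose while its mitochondrial partner did not pass the test. Among those 7, the ratios of FARSB to FARS2 and of VARS1 to VARS2 overlapped between the groups. In 1 pair, WARS1 and WARS2, the mitochondrial gene rose and the cytosolic gene did not pass. In 2 pairs, TARS1 with TARS2 and MARS1 with MARS2, both genes rose, and in 3 neither was called.

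The alanyl and leucyl pairs were called in opposite directions. The ratio of AARS1 to AARS2 was 17.2 ± 0.852 with scramble and 11.7 ± 0.238 with siDYRK2 (SD, n = 3), ranging over 16.6 to 18.2 and 11.4 to 11.9. LARS1 stood at 21.24, 21.31 and 20.48 FPKM with scramble and at 22.98, 22.97 and 22.24 FPKM with siDYRK2, a log2 fold change of 0.11 (standard error 0.0329, adjusted p = 0.034 by limma). The rise of LARS1 is small and its call was lost without any one of scramble replicates 1, 2 and 3 (adjusted p = 0.061, 0.072 and 0.084) or siDYRK2 replicates 1 and 2 (0.10 and 0.097). The ratio of LARS1 to LARS2 was 12.0 ± 0.583 with scramble and 17.1 ± 1.5 with siDYRK2 (SD, n = 3). The tryptophanyl ratio was 15.1 ± 0.685 with scramble and 10.6 ± 0.544 with siDYRK2, and the cysteinyl ratio 3.54 ± 0.175 and 4.46 ± 0.277 (SD, n = 3), each without overlap of the groups. In log2 units the ratio did not overlap between groups in 9 pairs, higher with siDYRK2 in 7 and lower in 2. Single genes did not overlap in 51.7% of cases, and the share for ratios of other gene pairs was not computed, so the count of 9 is not read as particular to these pairs. With 3 libraries a group an exact test of such a ratio cannot give a p below 0.1, so these ratios are a description.

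**Figure D3:**
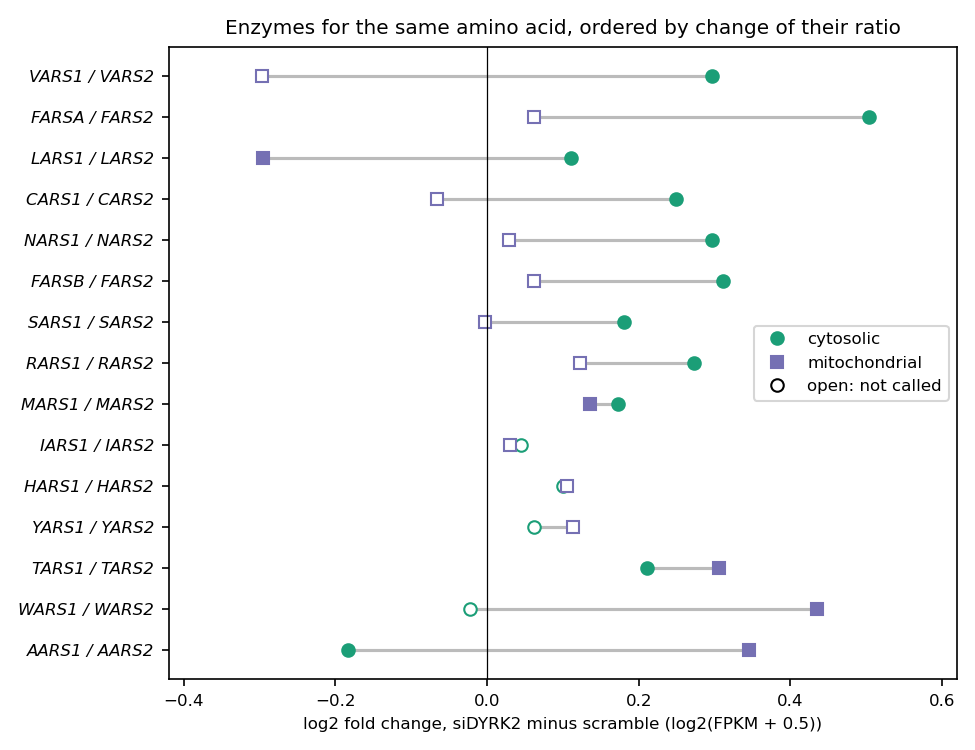
Log2 fold changes (x axis, siDYRK2 minus scramble) of the cytosolic enzyme (green circle) and the mitochondrial enzyme (purple square) for the same amino acid, filled where called. Pairs are ordered by the change of their ratio, from AARS1 and AARS2 (−0.53) at the bottom to VARS1 and VARS2 (0.59) at the top; the VARS2 libraries were widely spread.

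The 2 members that fell share short words in their 3′ untranslated regions (UTRs). The words ATCTATA and CATCTAT had been linked to lower levels in an earlier scan of these same libraries, so their presence here is a description and no independent support. In 1 GENCODE v29 transcript per gene, 3 of the 35 synthetases hold either word in the 3′ UTR, namely AARS1, LARS2 and FARSB. Of 11915 tested genes searched 14.6% hold either word there, and of these 29.6% were called lower and 16.8% higher. Over all genes searched the shares were 18.5% lower and 24.5% higher. These shares take no account of 3′ UTR length. The 3′ UTR searched was 429 bases long in AARS1, 1894 in LARS2 and 1338 in FARSB. In the synthetases with neither word it ran from 38 (RARS2) to 2360 bases (EARS2). Of the 32 synthetases with neither word, 16 rose and 0 fell (limma), whereas of all searched genes with neither word 25.8% were called higher and 16.6% lower. FARSB holds CATCTAT and rose. The sites are shown 5′ to 3′ with the word in capitals.
AARS1, chr16:70252465-70252492, minus strand: gtcacgctcgCATCTATAgataacggct
LARS2, chr3:45548713-45548739, plus strand: aatgccagaaATCTATAtatgttatct
LARS2, chr3:45548819-45548845, plus strand: aaatgtttatCATCTATgacttcagga
FARSB, chr2:222571772-222571798, minus strand: ccacagggaaCATCTATttgggctttg

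AARS1 has the 8-base form CATCTATA, which 2.32% of the searched genes hold in the 3′ UTR. Whether the words have a part in the lower levels of AARS1 and LARS2 was not tested.

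Some synthetase genes overlap other genes, and the sources used here do not say whether the counting used strand. In GENCODE v29, 12 of the 35 genes overlap a gene on the other strand that itself passed the expression filter, and 5 of these 12 were called higher and 0 lower by limma. Of the 23 without such an overlap 12 were called higher and 2 lower, beside 20.4% and 17.9% of all tested genes. HARS1 (chromosome 5, 140673904 to 140691862, minus strand) overlaps WDR55 and the start of HARS2, and MARS1 overlaps DDIT3. WARS2, which rose most among the mitochondrial genes, overlaps AL359915.2. The others called higher with such an overlap were CARS1, KARS1, MARS1 and EARS2. FARSA, EPRS1, AARS1 and LARS2 have no overlap of this kind. VARS2 overlaps GTF2H4 on its own strand.

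The lists of related genes below are to be read beside all tested genes, of which 20.4% were called higher and 17.9% lower. Of 3 scaffold genes of the multisynthetase complex 1 rose (33.3%). AIMP2 rose 1.17-fold from 23.0 ± 1.6 to 26.9 ± 0.87 FPKM (SD, n = 3; adjusted p = 0.015 by limma). AIMP1 stood at 10.05 and 10.3 FPKM and EEF1E1 at 21.5 and 22.1 FPKM, and neither passed the test. In the mitochondrion, an amidotransferase of QRSL1, GATB and GATC turns the glutamate attached to the glutaminyl tRNA into glutamine. None of the 3 genes passed the test (limma, 0 with an unadjusted p under 0.05). GATC was called lower without siDYRK2 replicate 2 (adjusted p = 0.047).

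A list of 6 genes joined those that remove wrongly attached amino acids, or support that proofreading, with peptidyl-tRNA hydrolases. Of these 1 rose and 1 fell (16.7% each), near the 20.4% higher and 17.9% lower of all tested genes. DTD2, which clears mischarged tRNA, rose from 15.9 ± 0.604 to 19.1 ± 0.879 FPKM, and PTRH2, a peptidyl-tRNA hydrolase, fell 1.19-fold from 12.2 ± 0.22 to 10.3 ± 0.323 FPKM (SD, n = 3). AARSD1, an editing protein related to the alanyl enzyme, stood at 4.67 ± 0.705 and 6.48 ± 1.33 FPKM (SD, n = 3; adjusted p = 0.065 by limma), and was called higher without siDYRK2 replicate 3 (adjusted p = 0.018). DTD1, PTRHD1 and ANKRD16, the last a partner of the alanyl enzyme in editing, did not pass.

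Of 6 genes for cytosolic elongation factors, exchange factors among them, 1 rose (16.7%) and 2 fell (33.3%). EEF1A2 rose 1.28-fold from 84.5 ± 3.87 to 108.3 ± 1.53 FPKM (SD, n = 3; adjusted p = 4.5e-04 by limma). EEF1A1, its near-identical and more abundant relative, was 1.12-fold lower at 383.9 against 431.1 FPKM (adjusted p = 0.035 by limma), and the exchange factor EEF1B2 was 1.11-fold lower (adjusted p = 0.025 by limma). The lower calls of EEF1A1 and EEF1B2 were kept in 6 and 8 of 15 alternatives. The limma adjusted p for EEF1A1 was 0.092, 0.11, 0.10, 0.097 and 0.054 without scramble replicates 1 and 2 and siDYRK2 replicates 1, 2 and 3. For EEF1B2 it was 0.074, 0.089, 0.067, 0.061 and 0.065. EEF1D, EEF1G and EEF2 did not pass with all 6 libraries. EEF1D was called higher without siDYRK2 replicate 2 (adjusted p = 0.044), and EEF1G lower without scramble replicate 3 (0.037).

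Of 9 mitochondrial translation factors 1 rose (11.1%) and 4 fell (44.4%), with a median log2 difference of −0.02. GFM2, a factor of ribosome recycling, fell 1.79-fold from 20.7 ± 0.762 to 11.5 ± 1.14 FPKM (SD, n = 3; adjusted p = 1.8e-04 by limma). MTIF2, the initiation factor, fell 1.35-fold and MTRF1L, a release factor, 1.17-fold. MTIF3, the other initiation factor, stood at the threshold (adjusted p = 0.050 by limma) and kept its call in 3 of 15 alternatives. TUFM, which delivers charged tRNA to the mitochondrial ribosome, rose 1.16-fold from 82.6 to 95.7 FPKM. Without scramble replicate 2 or siDYRK2 replicate 3, 2 of the 9 were called higher. The difference between these factors and the synthetases was not tested.

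Of 9 genes for the sensing of uncharged tRNA and for eIF2 phosphorylation, 3 rose (33.3%) and 1 fell (11.1%). GCN1, the ribosome-bound activator of GCN2, rose 1.42-fold from 23.6 ± 0.626 to 33.5 ± 1.45 FPKM (SD, n = 3; adjusted p = 1.5e-04 by limma). EIF2AK4, which encodes GCN2, stood at 14.45 ± 0.512 and 13.9 ± 0.544 FPKM (SD, n = 3; adjusted p = 0.40 by limma). EIF2S1, the kinase substrate, rose 1.13-fold. Of the regulatory subunits that direct its dephosphorylation, PPP1R15B rose 1.22-fold and PPP1R15A fell 1.22-fold.

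Genes of the ATF4 amino acid response were called in both directions. Of 28 genes 13 rose (46.4%) and 8 fell (28.6%), beside 20.4% and 17.9% of all tested genes, and the median log2 difference was 0.07. ASNS, the asparagine synthetase, rose 2.10-fold from 69.1 ± 1.82 to 145.5 ± 6.67 FPKM (SD, n = 3; adjusted p = 5.6e-06 by limma). SLC7A5, the light chain of a transporter of large neutral amino acids, rose 1.58-fold, and PSAT1, an enzyme of serine synthesis, 1.26-fold. CEBPB, a partner of ATF4, fell 1.55-fold from 82.4 ± 2.07 to 53.2 ± 1.23 FPKM (SD, n = 3). ATF4 itself stood at 151.9 ± 3.89 and 146 ± 9.92 FPKM (SD, n = 3; adjusted p = 0.39 by limma), and was called lower without siDYRK2 replicate 3 (adjusted p = 0.042). ATF5, TRIB3 and CHAC1 were named after their values were seen. ATF5 fell 2.02-fold and TRIB3 1.30-fold, and CHAC1 rose 1.66-fold. Without scramble replicate 2, and without siDYRK2 replicate 2, 5 genes of this list were called lower in place of 8.

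MYC, which also binds synthetase promoters, stood at 27.8 ± 0.9 and 27.05 ± 0.973 FPKM, and its partner MAX at 9.06 ± 0.33 and 8.84 ± 0.396 FPKM (SD, n = 3). Neither passed the test (limma, 0 with an unadjusted p under 0.05).

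**Figure D4:**
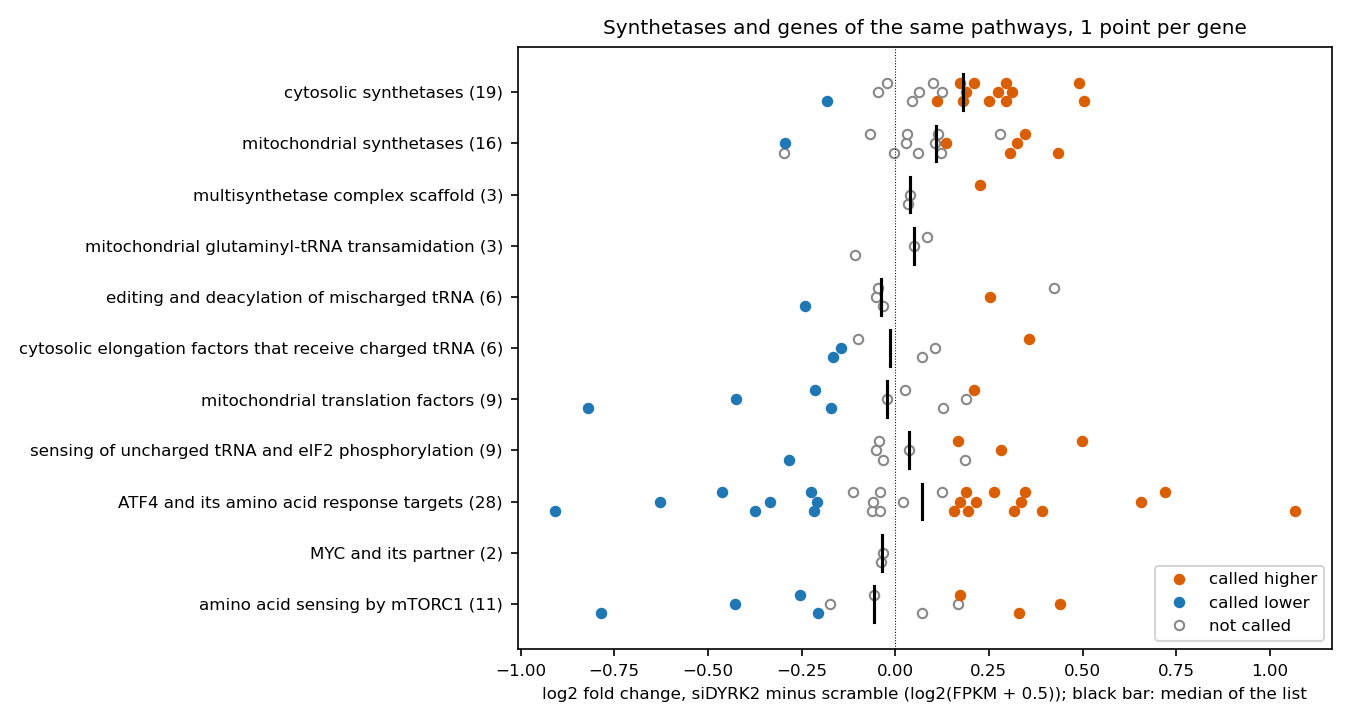
Log2 fold change (x axis, siDYRK2 minus scramble) of each gene in the 2 synthetase groups and in the lists of related genes, 1 point per gene, orange where called higher, blue where called lower and open where not called, with a black bar at each list's median. Points of the 2 synthetase groups lie mostly right of 0, whereas the ATF4 list runs from −0.91 (ATF5) to 1.07 (ASNS).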

How the data were processed

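Expression was measured by RNA sequencing of Trizol-extracted, DNase-treated RNA in 6 libraries, 3 per group. Per the submitters' processing notes HISAT2, StringTie and GRCh38 were used, with no versions or order. The sources used here give no annotation, strand setting or filter. Per the file headers the deposited values are FPKM computed by the authors, given to 2 decimals. Library names in the labels assigned each of the 6 columns, and no 2 were identical.

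The filter was a mean of 0.5 FPKM or more over all libraries (15121 of 33392 genes). The test was that of limma 3.58.1 (R 4.3.3) on log2(FPKM + 0.5) (mean-variance trend, no covariate, two-sided, Benjamini-Hochberg at 0.05). FPKM hides depth, and fold changes of low genes are understated on this scale. Fold values are ratios of mean FPKM. Values of short single-transcript genes times length lay within 0.1 of whole steps in 27.4% to 30.8% of cases. That is at the best of many step sizes tried per library, whereas the chance share of 20% holds for 1 fixed step. Reads were therefore not recovered, and the depth is unknown. In simulated data (15121 genes, of which 50 were changed at each size), limma called 36% of genes changed by 0.25 in log2. It called 78% at 0.5, 96% at 1 and 100% at 2, with 9 false calls. These rates need not hold for the real libraries, where 38.3% of all tested genes were called.

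Members and lists were chosen with earlier results of these data known. The naming rule takes DYRK2, all members, every gene of related lists of up to 6 genes, and from longer lists ATF4, MYC or EIF2AK4 and the 4 genes with the smallest adjusted p among those called. Alternatives changed the pseudocount, filter, scaling, trend, replicate block and libraries. Motifs were searched in RefSeq promoters (GRCh38.p14) and GENCODE v29 transcripts with Python 3.11.15, numpy 2.4.6, scipy 1.17.1 and pandas 2.3.3.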

Additional observations from a re-analysis of the deposited data

How the results depend on the processing

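Each result was recomputed under 15 alternatives, 6 of which leave out 1 library. Of the 19 called synthetases 16 kept their call in every alternative that gave a value, LARS1, MARS2 and LARS2 being the exceptions, and of the 16 uncalled ones 14 were called in none. The number of cytosolic genes called higher was 11 or 12 and lower 1 throughout, and the median log2 fold change of the mitochondrial genes lay between 0.0877 and 0.1198 with 1 library left out and that of the cytosolic genes between 0.1567 and 0.2039. The number of mitochondrial genes called lower, 1 in the report, was 0 without a filter on low values, with a mean of at least 2 FPKM (which leaves LARS2 out of the test) and with the replicate block, and 0 to 1 with 1 library left out.

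Among the related lists, editing and hydrolase genes called higher numbered 2 with a mean of at least 2 FPKM. They numbered 2 with the replicate block (1 to 2 with 1 library left out). Cytosolic elongation factors called lower numbered 0 with no filter on low values, 0 without the limma trend, 1 with quantile normalization and 1 with the replicate block (0 to 3 with 1 library left out), and those called higher 1 to 2. With no filter, 5 genes of the ATF4 list and 2 of the amino acid sensing list were called lower (5 to 9 and 2 to 4 with 1 library left out). With 1 library left out, mitochondrial translation factors called higher numbered 1 to 2 and transamidation genes called lower 0 to 1.

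Direction turned only for genes that were not called. SARS2, at −0.0021, was 0.0059 when rescaled without mitochondrially encoded genes and 0.0012 with quantile normalization. With 1 library left out the lowest and highest values were −0.0452 and 0.0274 for SARS2, −0.0678 and 0.0137 for WARS1, −0.0403 and 0.1156 for FARS2, −0.0128 and 0.0681 for IARS2, −0.1473 and 0.0777 for PTRHD1 and −0.2026 and 0.1123 for ANKRD16. The cause of these shifts was not tested.

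The deviations of same-numbered libraries from their group means correlated at −0.077, 0.024 and −0.088 across 15121 genes. Only the libraries numbered 2 correlated best with each other (0.024). The highest values were between unlike numbers, 0.110 for scramble replicate 3 with siDYRK2 replicate 1 and 0.078 for scramble replicate 1 with siDYRK2 replicate 3. Whether equal replicate numbers mark a shared culture or batch was not tested. A replicate block changed the calls over all genes to 2495 higher and 2321 lower, from 3079 and 2714, and removed the calls of LARS1, MARS2 and LARS2 (limma adjusted p = 0.062, 0.085 and 0.057). The unknown depth limits all statements on the genes near 1 FPKM.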

Other observations

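Amino acid supply is also sensed by mTORC1, the kinase complex that promotes protein synthesis. Of 11 genes of that sensing pathway 3 were called higher (27.3%) and 4 lower (36.4%) by limma, beside 20.4% and 17.9% of all tested genes. MTOR, the kinase, rose 1.38-fold from 6.62 ± 0.26 to 9.15 ± 0.237 FPKM (SD, n = 3; adjusted p = 3.6e-04 by limma), and RPTOR, its scaffold, rose 1.29-fold. RRAGC, a Rag GTPase that recruits the complex to the lysosome, fell 1.37-fold, and CASTOR1, an arginine sensor, fell 1.94-fold from 3.28 ± 0.544 to 1.69 ± 0.246 FPKM (SD, n = 3). Without scramble replicate 2 or 3, or siDYRK2 replicate 1 or 3, 2 genes were called lower in place of 4.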
